A study of Capra hircus with 9 samples.

Results

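The EGF receptor family and ligand genes were taken as the rows of the expression table whose symbol is EGFR, ERBB2, ERBB3, ERBB4, AREG, EREG, HBEGF, NRG1, TGFA or BTC. All 10 were present among 23499 genes, as 4 receptor genes and 6 ligand genes. Mammary gland tissue came from 9 healthy adult Laoshan dairy goats that were kept on one farm and had the same parity. There were 3 goats in late lactation (LL, 240 days postpartum), 3 in the dry period (DP, 300 days postpartum) and 3 in late gestation (LG, 140 days after mating). No treatment or genetic change was involved, and each library came from 1 goat. RNA was taken from whole tissue after slaughter, so a level reflects every cell type in the sample. In such bulk samples, fewer cells of a type and less RNA per cell cannot be told apart.

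The receptors of this family are tyrosine kinases of the cell surface that pair with one another when a ligand binds, and they signal mainly through the RAS and MAPK cascade and through PI3K and AKT. The ligands are made as membrane proteins and are released by proteases. AREG and TGFA bind EGFR, BTC, EREG and HBEGF bind EGFR and ERBB4, and NRG1 binds ERBB3 and ERBB4. ERBB2 has no known ligand and acts as the preferred partner, while ERBB3 has little kinase activity of its own. In the mammary gland, AREG and EGFR are known for duct growth, and NRG1 and ERBB4 for the growth and differentiation of milk-producing alveoli.

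The values were read as FPKM, that is, fragments scaled to transcript length and to the mapped fragments of the library, so genes within one library can be compared. Milk protein genes take up much of an LL library, and its top 10 genes made up 80.6% to 86.0% of the summed FPKM in LL against 53.6% to 58.5% in DP and LG. Each library was therefore divided by a median-ratio scaling factor, 0.498 to 0.605 in LL and 1.44 to 1.53 in DP, against 1.20 to 1.31 in LG, and the quotient is called scaled FPKM here. Without this step, the median of all genes tested shifted by 1.09 (log2) in DP against LL, by 0.93 in LG against LL and by -0.18 in LG against DP. Log2 fold changes are on the log2(scaled FPKM + 1) scale, which understates changes of weakly expressed genes. A gene was called at an adjusted p under 0.05 (limma, Benjamini-Hochberg over 14701 genes) and a change of 1 or more on the log2 scale in either direction, and "rose" and "fell" are used only for called genes. The 6 luminal epithelial markers were measured in every stage, with a summed scaled FPKM of 406 to 475 in LL and 320 to 606 in DP, against 384 to 502 in LG, and 0 of them were called in any comparison. The 5 markers of secretory epithelium summed to 166766 to 269118 in LL and 73.1 to 84.3 in DP, against 4894 to 6150 in LG. Most of the LL sum came from CSN2 and LALBA. In LG against LL, 4 of the 5 fell, XDH by only 1.03, and ELF5 was not called (-0.37).

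The receptor genes did not follow one course. From LL to LG, ERBB3 and ERBB4 rose, while ERBB2 was higher and EGFR lower by less than the fold threshold, EGFR being higher in LG where no scaling was used. From LL to DP, only ERBB3 among the 4 receptors was called, and from DP to LG only ERBB4 was. Among the ligands, AREG fell in LG against both other stages, BTC and NRG1 rose in LG against LL, and TGFA and HBEGF were called in no comparison.

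**Figure D1:**
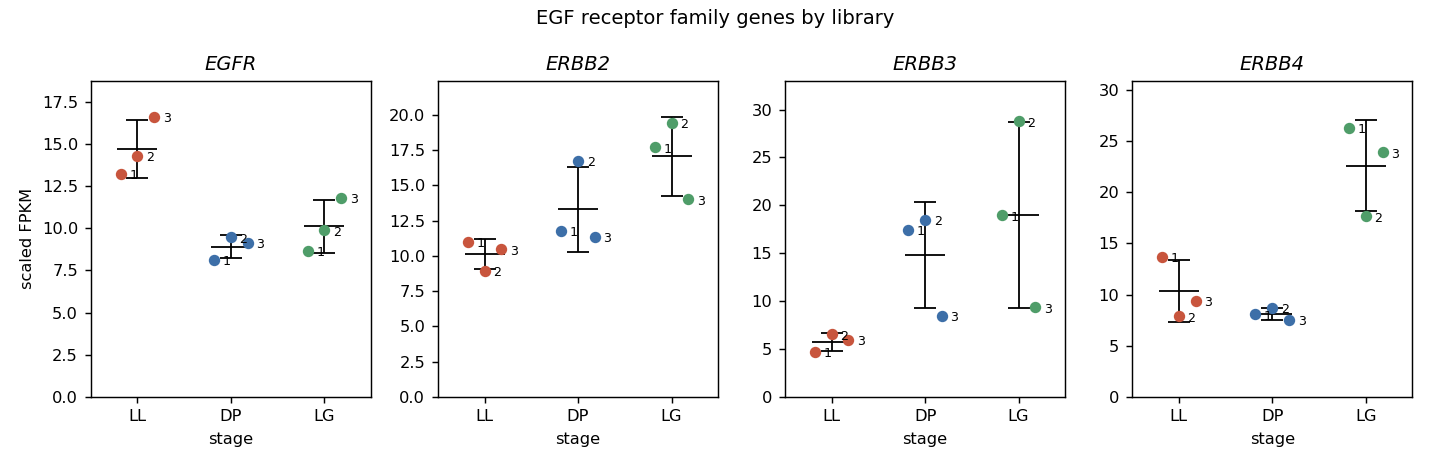
Scaled FPKM (vertical axis, linear) of the 4 receptor genes in each of the 9 libraries, by stage. Points are libraries with their replicate number, and bars give the mean and SD of 3 libraries. EGFR is highest in the 3 LL libraries on this scaled measure (lowest without scaling), ERBB3 is lowest in them, and ERBB4 is highest in the 3 LG libraries.

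EGFR (gene ID 102172767, chromosome 22, 769419 to 982124, minus strand in the table, which names no build) encodes the receptor for EGF, TGFA and AREG. Its scaled FPKM was 13.2, 14.3 and 16.6 in LL and 8.15, 9.46 and 9.14 in DP, against 8.68, 9.87 and 11.8 in LG. All LL libraries lay above all DP and LG libraries, while DP and LG overlapped. DP libraries differed from LL by a log2 fold change of -0.66 ± 0.15 (standard error throughout, limma) at an adjusted p of 0.00409, and LG libraries by -0.50 ± 0.15 at 0.0170, neither large enough to be called. These directions rest on the scaling, since the deposited FPKM were 6.58 to 10.1 in LL and 12.5 to 13.6 in DP, against 10.4 to 15.5 in LG, and the unscaled log2 fold changes were 0.63 and 0.58, both below the shift of all genes. For LG against DP the log2 fold change was 0.16 (95% confidence interval -0.17 to 0.48), and -0.057 without scaling.

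ERBB2 (gene ID 102181989, chromosome 19, 39713161 to 39737414) had 10.99, 8.93 and 10.5 scaled FPKM in LL and 11.8, 16.7 and 11.4 in DP, against 17.7, 19.4 and 14.0 in LG. The LL libraries were the lowest, just under the DP libraries, and the ranges of DP and LG overlapped. LG against LL gave 0.69 ± 0.18 on the log2 scale at an adjusted p of 0.0108, which did not reach the fold threshold. DP against LL and LG against DP gave 0.35 and 0.34, with 95% confidence intervals of -0.06 to 0.75 in the first and -0.06 to 0.75 in the second. Without scaling ERBB2 was called in both comparisons with LL, at 1.63 and 1.75.

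ERBB3 (gene ID 102173448, chromosome 5, 56591846 to 56613191), the partner that supplies PI3K binding sites, had the lowest LL levels of the 4 receptors. It stood at 4.68, 6.54 and 5.96 scaled FPKM in LL and 17.5, 18.5 and 8.47 in DP, against 19.0, 28.8 and 9.35 in LG. Every DP and LG library exceeded every LL library, but replicate 3 of both stages was well below the other 2 libraries of its stage. ERBB3 rose by 1.46 ± 0.38 (adjusted p = 0.0108) in LG against LL and by 1.17 ± 0.38 (adjusted p = 0.0256) in DP against LL on the log2 scale. The LG call held in each alternative run. The DP call was lost without LL replicate 1 (1.05, adjusted p = 0.0787), LL replicate 3 (1.19, adjusted p = 0.0565), DP replicate 1 (1.02, adjusted p = 0.0757) or DP replicate 2 (0.98, adjusted p = 0.0823). LG and DP differed by 0.28 (95% confidence interval -0.57 to 1.14).

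ERBB4 (gene ID 102180167, chromosome 2, 35345195 to 36642350), a receptor for neuregulins and BTC, was set apart by LG. Its scaled FPKM was 13.7, 7.88 and 9.36 in LL and 8.07, 8.69 and 7.52 in DP, against 26.3, 17.7 and 23.9 in LG. The LG libraries exceeded all others, and LL and DP overlapped. ERBB4 rose by 1.36 ± 0.21 (adjusted p = 0.00109) in LG against DP, a call that held in each alternative run, and by 1.08 ± 0.21 (adjusted p = 0.00238) in LG against LL. The latter passed below the fold threshold without LL replicate 2 (0.91) or LG replicate 1 (0.96), with adjusted p of 0.0115 and 0.00987. DP against LL gave -0.29 (95% confidence interval -0.75 to 0.18), and 0.98 without scaling.

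Because FPKM are per length, the receptor genes can be set against one another within a library, where no scaling between libraries enters. In LL the order of mean FPKM was EGFR (8.18), ERBB4 (5.62), ERBB2 (5.58) and ERBB3 (3.19), in DP it was ERBB3 (21.8), ERBB2 (19.5), EGFR (13.1) and ERBB4 (11.9), and in LG it was ERBB4 (28.2), ERBB3 (23.5), ERBB2 (21.2) and EGFR (12.7). Neighbours in these orders overlapped over the 3 libraries, except ERBB2 and ERBB3 in LL and ERBB2 and EGFR in both DP and LG. By mean FPKM, EGFR was thus first in LL and last in LG. Single libraries departed from this. ERBB4 (6.83) was above EGFR (6.58) in LL replicate 1, and ERBB3 (12.3) was below EGFR (15.5) in LG replicate 3.

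**Figure D2:**
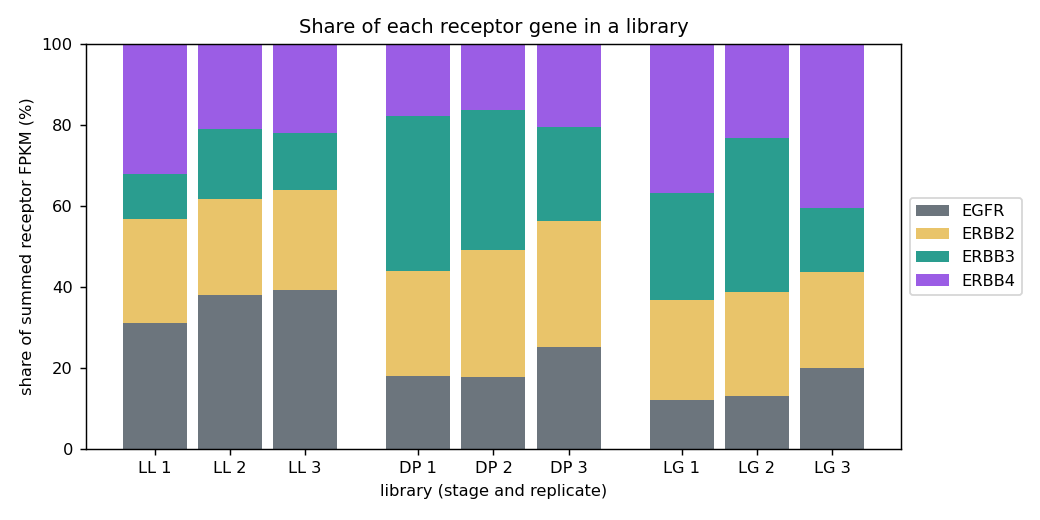
Share of each receptor gene in the summed FPKM of the 4 receptor genes (vertical axis, percent), with 1 bar for each library. The EGFR segment takes 31.0% to 39.2% in LL and 17.7% to 25.1% in DP, against 12.1% to 19.97% in LG.

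As a share of the summed FPKM of the 4 receptors, EGFR held 36.1% ± 4.40 (SD, n = 3 here and below) in LL. It held 20.2% ± 4.18 in the DP libraries and 15.0% ± 4.30 in the LG libraries. ERBB4 held 25.1% ± 6.20, 18.2% ± 2.21 and 33.5% ± 9.02 in the same order, and ERBB3 held 14.1% ± 3.20, 32.1% ± 7.91 and 26.8% ± 11.1. ERBB2 was the steadiest, at 24.7% ± 1.04, 29.5% ± 3.06 and 24.7% ± 0.969. By an exact permutation test of the 3 stages, p was 0.0107 for EGFR, 0.0393 for ERBB4, 0.05 for ERBB2 and 0.104 for ERBB3. Adjusted over the 10 shares of receptors and ligands (exact permutation test), the smallest value was 0.0536, so no share passed the threshold. With 1 library left out, the adjusted p of EGFR ran from 0.0179, without LG replicate 3, to 0.125 (exact permutation test). Each pair of stages was limited to a p of 0.1, the smallest that 3 against 3 libraries allow.

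The ratio of ERBB4 to EGFR FPKM, chosen after the values were seen and given without a test, was 0.551 to 1.04 in LL and 0.823 to 0.990 in DP, against 1.79 to 3.03 in LG. For ERBB3 to EGFR it was 0.354 to 0.458 in LL and 0.926 to 2.14 in DP, against 0.793 to 2.91 in LG. The LG libraries stood apart in the first ratio and the LL libraries in the second. The summed scaled FPKM of the 4 receptors was 37.7 to 42.6 in LL and 36.5 to 53.4 in DP, against 59.1 to 75.8 in LG.

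**Figure D3:**
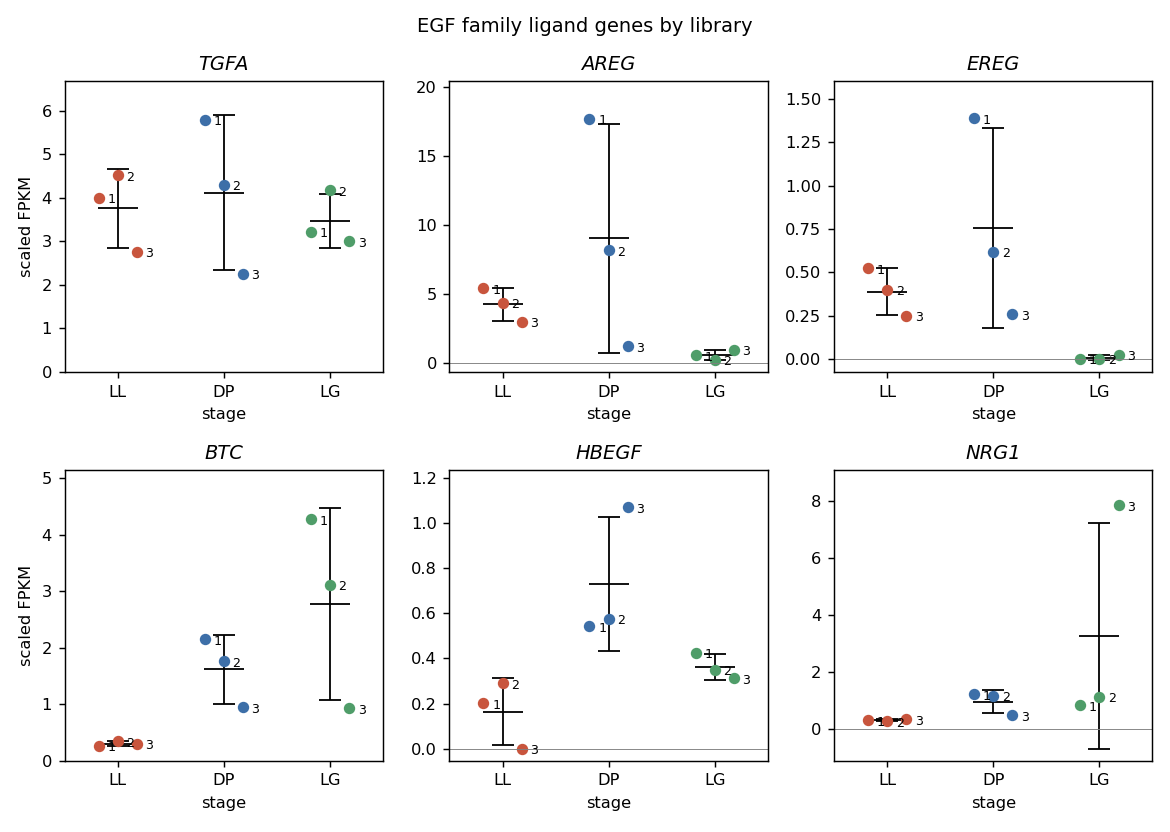
Scaled FPKM (vertical axis, linear and different for each gene) of the 6 ligand genes in each library, by stage. Points are libraries with their replicate number, and bars give the mean and SD of 3 libraries. AREG and EREG share a pattern with DP replicate 1 highest and the LG libraries lowest, and NRG1 has 1 LG library far above the rest.

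TGFA (gene ID 102185926, chromosome 11, 13737385 to 13849537), an EGFR ligand, had overlapping levels in the 3 stages. It had 3.998, 4.52 and 2.76 scaled FPKM in LL and 5.79, 4.29 and 2.26 in DP, against 3.21, 4.18 and 3.00 in LG. The log2 fold changes were 0.06 (95% confidence interval -0.51 to 0.63) for DP against LL, -0.08 (-0.66 to 0.49) for LG against LL and -0.14 (-0.72 to 0.43) for LG against DP. Without scaling, DP against LL was 1.14 and LG against LL was 0.80, beside shifts of all genes of 1.09 and 0.93.

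AREG (gene ID 102180661, chromosome 6, 89910173 to 89919957), which encodes amphiregulin, differed widely between the DP libraries. Its scaled FPKM was 5.38, 4.34 and 2.96 in LL and 17.7, 8.17 and 1.20 in DP, against 0.518, 0.203 and 0.921 in LG. The 3 LG libraries were the lowest of all, and the DP libraries spanned the whole LL range. AREG fell by 2.25 ± 0.62 (adjusted p = 0.0198) in LG against DP and by 1.76 ± 0.62 (adjusted p = 0.0393) in LG against LL on the log2 scale. The fall against LL was not called without any 1 of the 6 libraries compared (adjusted p 0.0560 to 0.1098), nor without scaling (-0.99, adjusted p = 0.190), with quantile normalization (-1.73, adjusted p = 0.0785) or with no filter (adjusted p = 0.0748). The fall against DP was not called without DP replicate 2 (-2.05), LG replicate 1 (-2.23) or LG replicate 2 (-2.07). DP against LL gave 0.49 (95% confidence interval -0.90 to 1.88), which became 1.35 and was called without DP replicate 3 (adjusted p = 0.00722), and -0.18 without DP replicate 1.

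EREG (gene ID 102183226, chromosome 6, 89833683 to 89853577), which encodes epiregulin, reached 0.5 FPKM in 2 libraries only and was not among the 14701 genes tested. It had 0.522, 0.398 and 0.248 scaled FPKM in LL and 1.39, 0.617 and 0.257 in DP, and in LG it was listed at 0 in 2 libraries and at 0.0228 in the other. The LG libraries were the lowest of all. In a fit with no filter, over 20421 genes, LG against DP gave -0.75 ± 0.20 (adjusted p = 0.0277), and LG against LL gave -0.46 (adjusted p = 0.111).

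BTC (gene ID 102183499, chromosome 6, 90214953 to 90262925, minus strand), which encodes betacellulin, was lowest in LL. It had 0.261, 0.343 and 0.297 scaled FPKM in LL and 2.15, 1.76 and 0.945 in DP, against 4.28, 3.12 and 0.928 in LG. Each DP and LG library exceeded each LL library, and replicate 3 was again the lowest of both stages. BTC rose by 1.42 ± 0.33 (adjusted p = 0.00590) in LG against LL, a call lost with quantile normalization (0.89, adjusted p = 0.0666). DP against LL gave 0.98 ± 0.33 (adjusted p = 0.0281), just under the fold threshold, and 2.04 with a pseudocount of 0.1, which was called. LG against DP gave 0.44 (95% confidence interval -0.30 to 1.17).

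EREG, AREG and BTC follow each other on chromosome 6, with no other gene of the table between them, and EPGN, a further EGF ligand gene, lies upstream at 89772748 to 89779468. AREG and EREG, which lie 56.6 kb apart on the plus strand, were both lowest in LG, where BTC on the minus strand was above its LL values in each library. EPGN was at most 0.120 FPKM in any library. The values of AREG and EREG were not copies of each other, as a straight line between them left residuals of up to 10.03% of the range of EREG.

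HBEGF (gene ID 102185462, chromosome 7, 58936015 to 58967277), which encodes heparin-binding EGF-like growth factor, was weakly expressed throughout. It had 0.201 and 0.289 scaled FPKM in LL and was listed at 0 in LL replicate 3, against 0.543, 0.576 and 1.07 in DP, against 0.426, 0.349 and 0.312 in LG. The 3 stages did not overlap, and DP replicate 3 was the highest library. HBEGF reached the filter level of 0.5 FPKM in 4 libraries, none of them from LL. The log2 fold change of HBEGF in DP against LL was 0.57 ± 0.16 at an adjusted p of 0.0150, under the fold threshold, and became 0.06 with quantile normalization and 1.81 with a pseudocount of 0.1, which was called.

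NRG1 (gene ID 102182565, chromosome 27, 16986446 to 17222923), the neuregulin gene, had 0.301, 0.253 and 0.330 scaled FPKM in LL and 1.21, 1.15 and 0.472 in DP, against 0.827, 1.13 and 7.84 in LG. The LL libraries were below all others, and LG replicate 3 was far above the other LG libraries. At 0.14 to 0.20 FPKM, the LL libraries were under the filter level of 0.5, which NRG1 reached only in DP and LG. NRG1 rose by 1.33 ± 0.49 (adjusted p = 0.0476) in LG against LL. Without LG replicate 3 this was 0.59 (adjusted p = 0.0376), under the fold threshold, and the call was also lost without any 1 of the LL libraries, DP replicate 1 or DP replicate 2 (adjusted p 0.0554 to 0.102). Quantile normalization (0.71, adjusted p = 0.280), no filter (adjusted p = 0.0845) and a fit of LL and LG only (adjusted p = 0.0602) lost it too. DP against LL gave 0.56 ± 0.49 (adjusted p = 0.347), which was -0.13 with quantile normalization. The moderated F test over the 3 stages gave NRG1 an adjusted p of 0.0872.

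In DP against LL, 1 of the 9 members tested was called (ERBB3, higher), where 22.6% of all genes were called, 13.8% higher and 8.79% lower. For LG against LL, 5 of 9 were called, 4 higher (ERBB3, ERBB4, BTC and NRG1) and 1 lower (AREG), where 17.3% of all genes were called, 10.7% higher and 6.61% lower. Of these, BTC and NRG1 were under 0.5 FPKM in every LL library and passed the filter only through DP and LG libraries. For LG against DP, 2 of 9 were called, ERBB4 higher and AREG lower, where 13.3% of all genes were called, 6.37% higher and 6.88% lower. By the adjusted p alone, 4, 7 and 2 of 9 passed in these comparisons, beside 56.9%, 50.2% and 34.8% of all genes. The scaled values of the compared stages did not overlap for 6, 8 and 3 of the 9 members, beside 65.9%, 61.1% and 47.9% of all genes. The median log2 fold change of the members was 0.49, 0.69 and 0.28 in these comparisons, beside 0.0041, 0.019 and 0.0083 over all genes tested. By the moderated F test, 7 of the 9 members had an adjusted p under 0.05, beside 70% of all genes. HBEGF, like BTC and NRG1, was under 0.5 FPKM in every LL library and passed the filter only through DP and LG libraries. These genes are part of the counts without overlap against LL and of the medians. By the adjusted p alone, HBEGF and BTC are among those that passed in DP against LL, and BTC and NRG1 in LG against LL. HBEGF and BTC are also among those that passed the F test. Comparisons share libraries, so their values are not independent of each other. The count in LG against LL fell to 2 with quantile normalization and without LL replicate 2, and that in DP against LL ran from 0 to 3 when 1 library was left out.

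**Figure D4:**
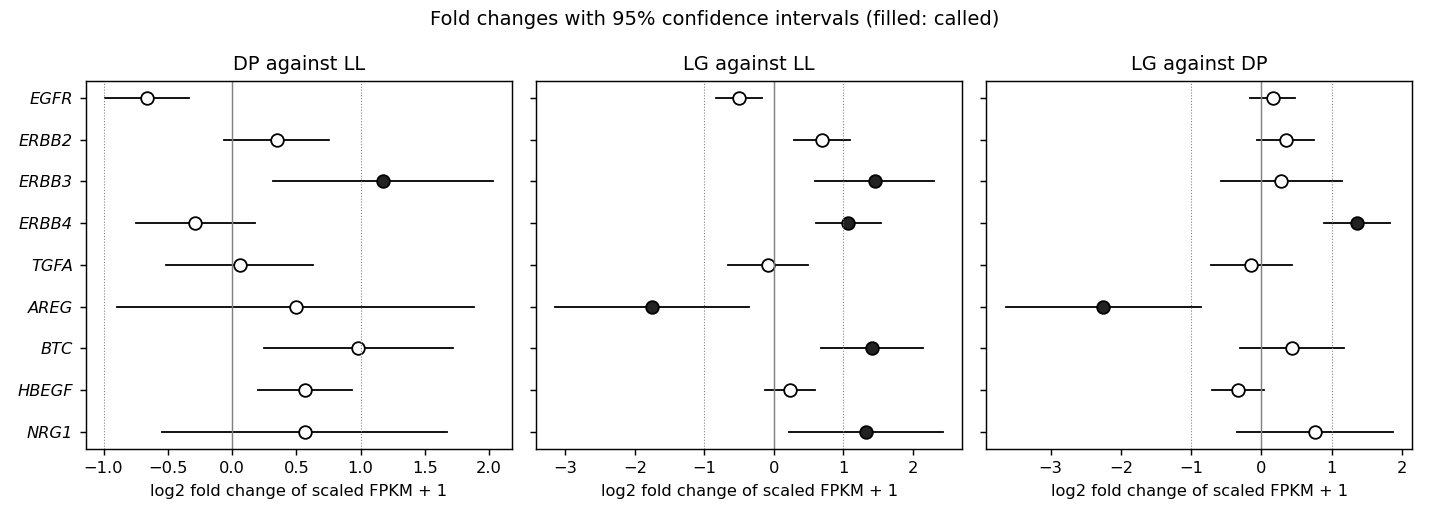
Log2 fold changes of scaled FPKM + 1 (horizontal axis) of the 9 members tested in the 3 comparisons, with lines for 95% confidence intervals from limma. Filled points were called, dotted lines mark the fold threshold, and the interval of AREG is the widest in all 3 panels.

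**Figure D5:**
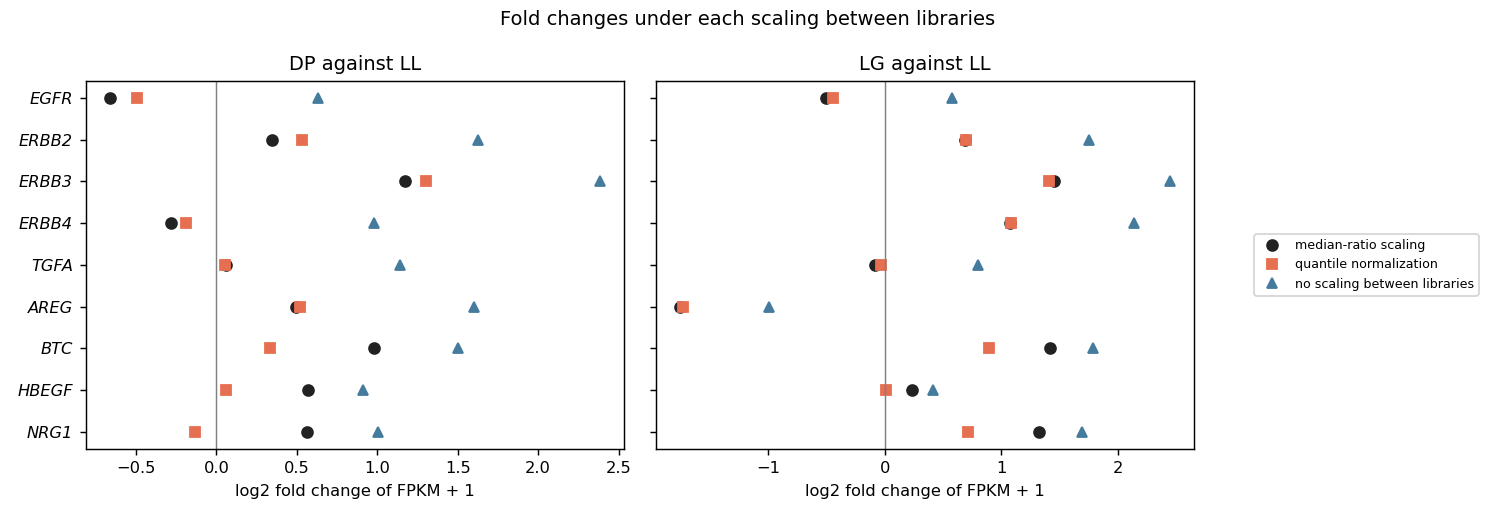
Log2 fold changes of the 9 members tested (horizontal axis) with median-ratio scaling, quantile normalization and no scaling, for both comparisons with LL. The unscaled points of EGFR lie above 0 and the scaled ones below it, whereas ERBB3 lies above 1 under each scaling.

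In the ligands' own sum, AREG held 46.04% ± 3.98 in LL, 43.4% ± 21.7 in DP and 4.97% ± 2.47 in LG, and TGFA held 41.3% ± 3.58, 27.5% ± 8.27 and 34.8% ± 11.7. BTC went from 3.45% ± 1.03 in LL to 11.1% ± 3.91 in DP and 29.4% ± 20.1 in LG, and NRG1 from 3.44% ± 1.37 to 6.26% ± 1.81 and 27.2% ± 28.6. In LL, AREG and TGFA together thus made up most of the measured ligand RNA, and in LG no single ligand led in all libraries. Of these 6 ligand shares, NRG1 had the smallest p (0.00714, exact permutation test of the 3 stages, 0.0536 adjusted), and none passed the adjusted threshold. Without LG replicate 3, the adjusted p was 0.0357 for NRG1 and 0.0179 for BTC (exact permutation test). These were the lowest of the runs with 1 library left out, which reached 0.317 for NRG1 and 0.202 for BTC (same test).

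DP replicate 3 was the lowest DP library for ERBB2, ERBB3, ERBB4, TGFA, AREG, EREG, BTC and NRG1 and the highest for HBEGF. Its 6 fibroblast markers summed to 2392 scaled FPKM, against 502 and 906 in the other DP libraries, 212 to 324 in LL and 521 to 954 in LG. The summed luminal markers of that library, 420, lay between the other DP libraries at 320 and 606. For the fibroblast list, 5 of 6 genes rose in DP against LL and 2 of 6 in LG against LL. T cell markers moved as well, with 5 of 5 higher and called in DP against LL (summed scaled FPKM 5.61 to 6.24 in LL and 17.7 to 55.2 in DP) and 3 of 5 in LG against LL (20.9 to 36.3 in LG). Of these, CD3D, CD3G and CD5 were at most 0.26 FPKM in LL and passed the filter only through DP and LG libraries. The 5 macrophage markers measured summed to 37.5 to 47.2 in LL and 80.1 to 98.9 in DP, against 28.4 to 30.6 in LG. Myoepithelial markers summed to 180 to 234 in LL and 136 to 453 in DP, against 225 to 304 in LG, with 1 of 6 called in DP against LL and 2 of 6 in LG against LL, all higher. The called ones were TP63 in both and OXTR in LG, at most 0.19 and 0.17 FPKM in LL, also under the filter level. Of all genes, 13.8% were called higher in DP against LL and 10.7% in LG against LL. Endothelial markers summed to 93.2 to 125, 112 to 160 and 58.1 to 79.9, the 4 adipocyte markers measured to 2.71 to 3.72, 2.57 to 20.4 and 1.14 to 1.69 with LEP at 0 in LL, and B cell markers to 193 to 846, 40.4 to 139 and 10.9 to 23.1, each in the order LL, DP and LG. Such sums are carried by the strongest genes of a list. In LG against LL, 4 of 5 endothelial markers had log2 fold changes below 0, but KDR was at 0.70. For the fibroblast list 4 of 6 were above 0 there, but PDGFRA (-0.76) and DCN (-0.24) were below. The part of these cell types in the levels of the receptors and ligands was not tested.

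Other genes of the pathway were followed as lists of 76 genes, of which 71 were tested. In DP against LL, 11 rose and 6 fell (15.5% and 8.45%, beside 13.8% and 8.79% of all genes). In LG against LL, 13 rose and 2 fell (18.3% and 2.82%, beside 10.7% and 6.61%), and in LG against DP, 5 rose and 1 fell (7.04% and 1.41%, beside 6.37% and 6.88%). The shares in DP against LL were thus near those of all genes. Most genes that rose against LL were under 0.5 FPKM in every LL library and passed the filter only through DP and LG libraries. ADAM19, LRIG3, GRB7 and PIK3R2 were among them in both comparisons. The shares called higher against LL therefore cannot be read as a rise of the pathway.

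Among the other ligand genes, 1 of 5 was tested. NRG4, a neuregulin for ERBB4, had 0.644 to 1.17 scaled FPKM in LL and 0.137 to 0.319 in DP, against 1.00 to 1.48 in LG, with a log2 fold change of 0.86 (adjusted p = 0.00207) in LG against DP, under the fold threshold. EGF and NRG3 were listed at 0 in every library, and NRG2 was at most 0.5 FPKM. These genes were named after their values were seen.

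Of the 10 genes for ligand processing, 3 rose in DP against LL and 2 in LG against LL, and 0 were called in LG against DP. Of all genes, 13.8% were called higher and 8.79% lower in DP against LL. The shares were 10.7% and 6.61% in LG against LL and 6.37% and 6.88% in LG against DP. They also stand beside the counts of the lists below, which are too short for a result about a list. ADAM19, a protease that can cleave neuregulins, rose by 1.70 (adjusted p = 4.63e-06) in DP against LL, from 0.195 ± 0.0744 to 2.88 ± 0.226 scaled FPKM (SD, n = 3 each). At most 0.17 FPKM in LL, ADAM19 was under the filter level of 0.5 there and passed only through DP and LG libraries. Of the 14 receptor regulators, 3 rose and 2 fell in DP against LL. CBLB, a ubiquitin ligase that acts on activated receptors, rose by 2.13 (adjusted p = 5.16e-06) in that comparison, and LRIG3 by 1.72 (adjusted p = 4.38e-06). In LL both were under the filter level of 0.5 FPKM, CBLB at most 0.25 and LRIG3 at most 0.21. LRIG1, which lowers receptor levels, went the other way and fell by 1.37 (adjusted p = 0.000146), from 16.4 ± 1.31 to 5.76 ± 1.19 scaled FPKM (SD, n = 3 each). In LG against DP, CBLB fell by 1.23 (adjusted p = 0.000282). Without scaling LRIG1 was at -0.10 in DP against LL and was not called.

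Adaptor and PI3K genes held 2 that rose and 1 that fell of 20 in DP against LL, 5 that rose in LG against LL and 2 that rose in LG against DP. GRB7, an adaptor of ERBB2 and ERBB3, rose by 2.02 (adjusted p = 0.00237) in DP against LL and by 1.94 (adjusted p = 0.00341) in LG against LL. At most 0.25 FPKM in LL, GRB7 was under the filter level there and passed only through DP and LG libraries. PIK3CA, a catalytic PI3K subunit, fell by 1.11 (adjusted p = 0.00124) in DP against LL, which was 0.16 and not called without scaling, and rose by 2.26 (adjusted p = 7.51e-05) in LG against DP. PIK3CB rose by 1.83 (adjusted p = 0.000859) in LG against DP, and the regulatory subunit gene PIK3R2 by 1.77 (adjusted p = 1.27e-05) in LG against LL. PIK3R2 was at most 0.15 FPKM in LL, also under the filter level.

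Of the 16 tested genes for targets and feedback, 3 rose and 2 fell in DP against LL, 4 rose and 1 fell in LG against LL and 1 rose in LG against DP. DUSP4, a phosphatase of MAP kinases, fell by 2.48 (adjusted p = 9.76e-05) in DP against LL and rose by 2.23 (adjusted p = 0.000462) in LG against DP. DUSP6, a phosphatase of the same kind, fell by 1.77 (adjusted p = 0.000322) in LG against LL and was at -0.67 and not called without scaling. CCND1, the cyclin D1 gene, rose by 2.21 (adjusted p = 0.000111) in LG against LL. EGR1 rose by 1.72 ± 0.63 (adjusted p = 0.0437) in the same comparison, and it was listed at 0 in 1 LL library and reached 11.1 scaled FPKM in 1 LG library. Its call was lost without any 1 of LL replicates 1 to 3 or LG replicates 1 and 2. Quantile normalization (1.52, adjusted p = 0.0931), no filter (adjusted p = 0.0815) and the replicate block (adjusted p = 0.0643) lost it too.

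The genes with the profile closest to each receptor were found among 12254 genes with a symbol, by the root mean square difference of centred log2 values over the 9 libraries. For EGFR they were EGLN1 (0.0868), C24H18orf25 (0.0976) and FOXS1 (0.103), beside a root mean square of 0.310 for EGFR itself about its mean. For ERBB2 (0.338) they were HFE (0.132), TTC29 (0.142) and TTC23L (0.145). CTF1 (0.251), IL15 (0.258) and FBXW9 (0.297) were closest to ERBB3 (0.783), and NPM3 (0.183), RRM2 (0.183) and RNF186 (0.188) to ERBB4 (0.628). As an example, RRM2, a subunit of ribonucleotide reductase, had 0.398 to 1.09 scaled FPKM in LL and 0.542 to 0.929 in DP, against 2.02 to 3.88 in LG. IL15 had 0.181 to 0.343 in LL and 1.96 to 3.02 in DP, against 1.57 to 4.11 in LG, and replicate 3 was the lowest library of both stages. Because both genes were picked for their likeness to a receptor, the features they share with ERBB4 or ERBB3 follow from that choice. A shared function or regulation was not tested.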

How the data were processed

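Libraries were made from total RNA of 9 goats with a TruSeq RNA v2 kit, which does not mark strand. According to the methods, the authors trimmed reads with Trimmomatic, aligned them to a goat reference genome with HISAT2 and quantified transcripts with StringTie, and the submitters' notes also name FastQC, SAMtools and HTSeq. The deposited values were taken as FPKM made by the authors, as the table names no unit, has decimals and sums to 601250 to 1157010 per library. Reads per library, which the study lists in its supplement, were not used here, since the reads behind each gene's value cannot be had from FPKM alone, and no counting error was computed. The methods identify the goat genome by its sample record without an assembly name, and how transcripts were joined into genes is not given in the sources used here.

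The FPKM were divided by median-ratio factors from 15905 genes, and log2 values were taken after adding a pseudocount of 1. The 14701 genes that reached 0.5 FPKM in 3 or more libraries were fitted with limma 3.58.1 in R 4.3.3 (mean-variance trend, all 9 libraries, no covariates). Thresholds follow the methods of the study. Shares were tested in Python 3.11.15 by exact permutation over 280 partitions. On simulated data of DP against LL with 14701 genes, 99 of 100 genes changed by 3 and 82 of 100 changed by 1.5 (log2) were called, with 6 unchanged genes. The changed genes were drawn only from genes with a mean log2 value above those of AREG, BTC, HBEGF and NRG1. The recovery of weakly expressed genes or of smaller changes was thus not measured. No member's values were tied to those of a gene within 8 places to within 1% of its range. Every member is named. Pathway genes are named by size of change among those called (up to 4 in each direction), except that some results of the pathway lists are not reported here, and the 3 closest profiles are named for each receptor. Members and lists were chosen with earlier results of these data known. Alternatives covered scaling, pseudocount, filter, libraries in the fit, replicate block, call rule, trend and each library left out. FABP4 and CD163, of the marker lists, were not matched by symbol.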

Additional observations from a re-analysis of the deposited data

How the results depend on the processing

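The 3 counts of members called and 46 gene results were recomputed under 18 alternatives. Of 821 gene values, 749 kept direction and side of the threshold, 44 lost the call, 14 gained it and 14 turned direction. Without scaling these were EGFR in DP against LL (0.63), LG against LL (0.58) and LG against DP (-0.057), ERBB4 (0.98) and PIK3CA (0.16) in DP against LL, and TGFA in LG against LL (0.80). With quantile normalization it was NRG1 in DP against LL (-0.13). With 1 library left out, the range crossed 0 for AREG in DP against LL (-0.18 to 1.35), TGFA in DP against LL (-0.17 to 0.35), LG against LL (-0.26 to 0.023) and LG against DP (-0.43 to 0.095), and ERBB3 in LG against DP (-0.069 to 0.69), none of them called with all libraries. In DP against LL, the count of members called went from 1 to 5 without scaling, to 3 with a pseudocount of 0.1, to 4 by the adjusted p alone and to 0 to 3 when 1 library was left out. For LG against LL it went from 5 to 2 with quantile normalization, to 3 with no filter and to 2 to 5 when 1 library was left out. For LG against DP it was 2 throughout, or 1 to 2 when 1 library was left out. Leaving out 1 library moved the adjusted p of the shares to 0.0179 to 0.125 for EGFR, 0.0357 to 0.317 for NRG1 and 0.0179 to 0.202 for BTC. The cause of these shifts was not tested. Over all genes, scaling also set the split of calls. Without it, 54.3% of genes were called higher and 2.51% lower in DP against LL (13.8% and 8.79% with it), 45.6% and 2.35% in LG against LL (10.7% and 6.61%), and 4.86% and 10.7% in LG against DP (6.37% and 6.88%). Replicate numbers are shared between stages but belong to different goats. Deviations of libraries with the same number correlated at -0.11 to 0.20, over 0.1 in 3 of 9 pairs, and 5 of 9 libraries correlated best with their own number. With the replicate block, 1, 4 and 2 members were called in DP against LL, LG against LL and LG against DP. NRG1 in LG against LL was lost in it (adjusted p = 0.0525). With 3 goats per stage and no read counts per gene, differences of genes near 0 FPKM are poorly resolved.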
